A study of Homo sapiens with 22 samples.

Results

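The genes described here are 8 annexins (ANXA1, ANXA2, ANXA3, ANXA4, ANXA5, ANXA6, ANXA7 and ANXA11) and CAPG, chosen by symbol from the gene lists of 3 single-cell RNA-seq experiments on melanoma cell lines. They are 9 of the 33538 genes counted. The untreated experiments profiled WM989 (a single-cell clone, A6-G3, carrying lineage barcodes) in 8 wells and WM983B (clone E9-D5) in 1 library, and the treatment experiment profiled barcoded WM989 cells in 8 libraries. All 3 groups were melanoma cells that had received no targeted therapy, and each cell carries the authors' state label, primed (the state in which cells survive targeted therapy) or drug-susceptible. In the treatment experiment 2 libraries each, r1 and r2, were left untreated (Control) or received recombinant TGFB1, the TGFBR1/2 inhibitor LY2109761 (TGFBRi) or the PI3K inhibitor GDC-0941 (PI3Ki). The sample labels call 1 library of each treatment Mix and the other Primed, and which of them is r1 is not known here. A separate ATAC-seq experiment, which maps open chromatin, used WM989 cells sorted as EGFR_High, NGFR-High, EGFR-NGFR-High or Mix (cells negative for both markers by the study's methods), with 3 libraries of each. Because each line is a clone, the values describe these clones and not melanoma in general.

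Annexins bind phospholipids of the inner cell membrane when calcium rises, and the family takes part in membrane repair, vesicle traffic and the anchoring of membranes to actin. ANXA1 is also released from cells and acts on formyl peptide receptors, ANXA2 forms a complex with S100A10 at the cell surface that binds plasminogen, and ANXA5 is known for its binding to exposed phosphatidylserine. CAPG belongs to the gelsolin family and caps the growing ends of actin filaments in response to calcium without cutting them.

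WM989 provided 12531 cells, of which 2843 were labelled primed and 9688 drug-susceptible, with 35882876 to 177318308 UMIs (unique molecular identifiers, the unit of counting) per well. WM983B provided 1449 cells (731 primed) and 102738398 UMIs, and the treatment experiment 40021 cells (4077 primed) and 70239657 to 122420544 UMIs per library. The labels do not give the sort of a WM989 well, and primed cells made up 56.9% to 79.7% of 4 wells (wells 1, 2, 5 and 6) and 6.85% to 9.42% of the other 4. By the methods, EGFR/NGFR-high cells and mixed cells were sorted apart and grown before sequencing. Each culture was then split over wells, so the 8 wells are not 8 independent cultures. In WM989 all 4 primed markers (NT5E, AXL, EGFR and NGFR) were above a ratio of 2 and all 6 melanocytic markers were below a ratio of 0.5 in primed cells. The states were called by clustering these same counts and named by markers of these kinds, so this describes the labels and does not check them. In WM983B the states were less far apart in these markers, since NGFR (4.56), AXL (3.15) and NT5E (2.09) were above 2 and EGFR did not reach 20 CPM, while 3 of 6 melanocytic markers were below 0.5 and MITF (0.502), TYR (0.840) and SOX10 (0.921) were not. Of 8 markers of leukocytes, fibroblasts, keratinocytes and endothelium, only PECAM1 and LUM reached 20 CPM (counts scaled to an equal total per group of cells) in a WM989 state. PECAM1 was at 22.8 CPM in primed cells against 0.183 CPM in the others, KRT5 was at 0 in both states, and the summed level of the 8 markers was 31.1 to 58.2 CPM over the wells in primed cells, with 27.3 to 42.3 CPM in drug-susceptible ones. Their part in the results was not tested. The same cell barcode (the tag of a droplet, not of a lineage) occurred in more than 1 library for 38 WM989 cells and 388 cells of the treatment experiment.

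ANXA1 was the member that differed most between the states of WM989, and its start is shown here beside that of ANXA2 because peaks were called at the start of the first only in libraries sorted for EGFR or NGFR and at that of the second in all. ANXA1 lies on chromosome 9 (hg38, chr9:73151865-73170393, plus strand) and ANXA2 on chromosome 15 (chr15:60347134-60402883, minus strand). Both sequences come from RefSeq (GRCh38.p14), run 5′ to 3′ on the strand of the gene and cover 250 bases before to 50 bases after the RefSeq start, which is chr9:73151615-73151914 for ANXA1 and chr15:60397937-60398236 for ANXA2. Capitals mark the letters TATAAA in both genes and TGANTCA, the letters bound by AP-1 factors, in ANXA2.
ANXA1: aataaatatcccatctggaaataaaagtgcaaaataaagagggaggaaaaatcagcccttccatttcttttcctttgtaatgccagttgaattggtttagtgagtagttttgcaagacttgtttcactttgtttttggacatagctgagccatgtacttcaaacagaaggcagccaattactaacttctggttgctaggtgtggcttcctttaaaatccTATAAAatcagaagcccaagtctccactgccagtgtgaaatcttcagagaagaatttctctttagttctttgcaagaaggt
ANXA2: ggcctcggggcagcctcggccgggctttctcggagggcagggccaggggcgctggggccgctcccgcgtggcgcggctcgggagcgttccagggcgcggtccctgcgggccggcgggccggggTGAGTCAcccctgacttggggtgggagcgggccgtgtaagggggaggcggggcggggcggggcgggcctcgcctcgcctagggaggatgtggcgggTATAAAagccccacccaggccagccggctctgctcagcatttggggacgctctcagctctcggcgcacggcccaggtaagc
TATAAA begins 31 bases before the start in both promoters, and TGANTCA begins 127 bases before the start of ANXA2. Over 17038 promoters of this length searched on both strands, 9.99% held TATAAA and 6.64% held TGANTCA. The promoter of ANXA1 had a GC content of 37.7%, and those of the other 8 members 51.7% to 78.0%. Elsewhere among the members TATAAA was found 61 bases before the start of ANXA11 and TGANTCA 59 bases before that of CAPG. None of the 9 promoters held GGAATG, the letters bound by TEAD factors, which 12.4% of all promoters held.

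In untreated WM989 cells ANXA1 and ANXA11 were more than 2 times as high in primed as in drug-susceptible cells. ANXA2 and ANXA4 were higher by a smaller ratio, ANXA5, ANXA6 and ANXA7 differed little, and CAPG was lower. The counts of a state were summed, within a well or over all wells, and scaled to CPM, and no test was made, because the states were called by clustering these same counts. Of the 8 members that reached 20 CPM in a state, 2 had a ratio above 2, against 10.4% of the 6316 genes that reached it, and 0 had a ratio below 0.5, against 6.55%. ANXA1, ANXA2, ANXA4 and ANXA11 (4 of 8) were higher in primed cells in all 8 wells, as were 29.8% of all genes. CAPG (1 of 8) was lower in all 8, as were 38.2%. For 3 of 8 members every primed well was above every drug-susceptible well, against 14.1% of all genes, and for 0 of 8 every primed well was below, against 16.2%. In such sums fewer cells expressing a gene and less of its RNA per cell cannot be told apart.

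ANXA1, the ligand of formyl peptide receptors, had 95.9, 152 and 239 CPM in primed cells (lowest, median and highest of 8 wells). In drug-susceptible cells of the same wells it had 1.93, 8.62 and 13.8 CPM. Every primed well was thus far above every drug-susceptible well, and among the primed values every r2 well lay above every r1 well. Over all cells ANXA1 had 174.1 CPM in primed (95% exact Poisson interval 172.3 to 176.0), and drug-susceptible cells had 5.13 CPM (4.95 to 5.33). The ratio was 33.9 over all cells and 12.4 to 54.0 by well (median 21.8), and it was 23.8 in cells that the authors called G1. Ratios over all cells were 35.5 in r1 and 29.2 in r2. Such intervals cover counting error only.

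The drug-susceptible level of ANXA1 moved with the makeup of the well. In the 4 wells with 56.9% to 79.7% primed cells it was 9.46 to 13.8 CPM, and in the 4 wells with 6.85% to 9.42% primed cells it was 1.93 to 7.79 CPM. These ranges did not overlap. Whether free RNA from primed cells adds to the drug-susceptible counts was not tested. Nor was the part of the sort from which a well was grown, which the labels do not give. At least 1 ANXA1 UMI was found in 91.5% of primed cells (exact Clopper-Pearson interval 90.4 to 92.5%) and in 14.9% of drug-susceptible cells (14.2 to 15.7%), at median depths of 58253 and 52835 UMIs. After each cell was thinned to 10000 UMIs these shares were 63.8% and 4.37%. For the background, ANXA13, an annexin of the gut, had a UMI in 1.27% of the primed cells and 1.63% of the others.

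ANXA2, which binds S100A10, was at 429, 620 and 732 CPM (lowest, median and highest well) where cells were primed, against 253, 341 and 508 CPM where they were drug-susceptible. The ranges overlapped across wells, but in each well the primed cells were higher, with well ratios of 1.34 to 2.31 and a ratio of 1.84 over all cells. In G1 cells the ratio was 1.45.

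ANXA11, an annexin with a long N-terminal domain that links RNA granules to lysosomes, was at 148, 177 and 262 CPM in the primed state, against 72.4, 82.4 and 112 CPM in the drug-susceptible state. Its ratio was the steadiest over wells among the members, 2.02 to 2.33, with an SD of the log2 ratio of 0.082 (n = 8 wells). Its level differed between replicates all the same, since the r1 wells lay above the r2 wells in both states. ANXA4, an annexin of epithelial membranes, showed a smaller difference without overlap, at 39.3, 46.5 and 55.1 CPM in primed against 29.6, 36.7 and 38.4 CPM in drug-susceptible wells (ratio 1.26). In the treatment experiment the states were closer in these genes. ANXA11 was at 150.5 and 128 CPM in untreated primed cells (r1 and r2) and at 88.2 and 84.6 CPM in drug-susceptible ones, and ANXA4 at 38.8 and 33.0 CPM against 33.7 and 35.3 CPM. Over its 8 libraries, treated ones included, the ratios were 1.31 and 1.07, with 26.2 for ANXA1 and 0.588 for CAPG, and ANXA2 was at 653 CPM against 284 CPM. These pooled values mix state with treatment. The TGFB1 libraries (r1 and r2) held 1577 and 1757 of the 4077 primed cells. Of the 35944 drug-susceptible cells they held 3842 and 3858.

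ANXA5, ANXA6 and ANXA7 did not separate the states. ANXA5 was at 449, 691 and 797 CPM in primed against 578, 784 and 977 CPM in drug-susceptible wells, with a ratio of 0.886. It was lower in primed cells in 7 of 8 wells, and the difference was larger in r1 (ratio 0.761) than in r2 (0.951). ANXA6, an annexin with a duplicated core, had a ratio of 1.03 and was higher in primed cells in 5 wells and lower in 3, at 23.4 to 44.8 against 23.5 to 37.9 CPM. ANXA7, known for the fusion of secretory membranes, had a ratio of 0.923 and was lower in 7 of 8 wells, at 53.7 to 72.4 against 62.6 to 78.2 CPM. ANXA3 was close to absent, with 23 counts in all primed cells (0.120 CPM) and 25 counts in all drug-susceptible cells (0.0448 CPM), so that no ratio is given.

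CAPG went the other way from ANXA1. Its primed level was 464, 625 and 768 CPM (lowest, median and highest well) and its drug-susceptible level 536, 802 and 1189 CPM. The ranges overlapped over all wells but not within a replicate. In r1 the drug-susceptible wells were at 912 to 1189 CPM and the primed wells at 727 to 768 CPM, and in r2 they were at 536 to 691 CPM and 464 to 524 CPM. The level in drug-susceptible cells was 1.50 times that in primed cells over all cells, a primed to drug-susceptible ratio of 0.666. By well this ratio was nearer to 1 in the median, at 0.762 (range 0.613 to 0.919). It was 0.656 over the cells of r1 and 0.799 over those of r2.

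**Figure D1:**
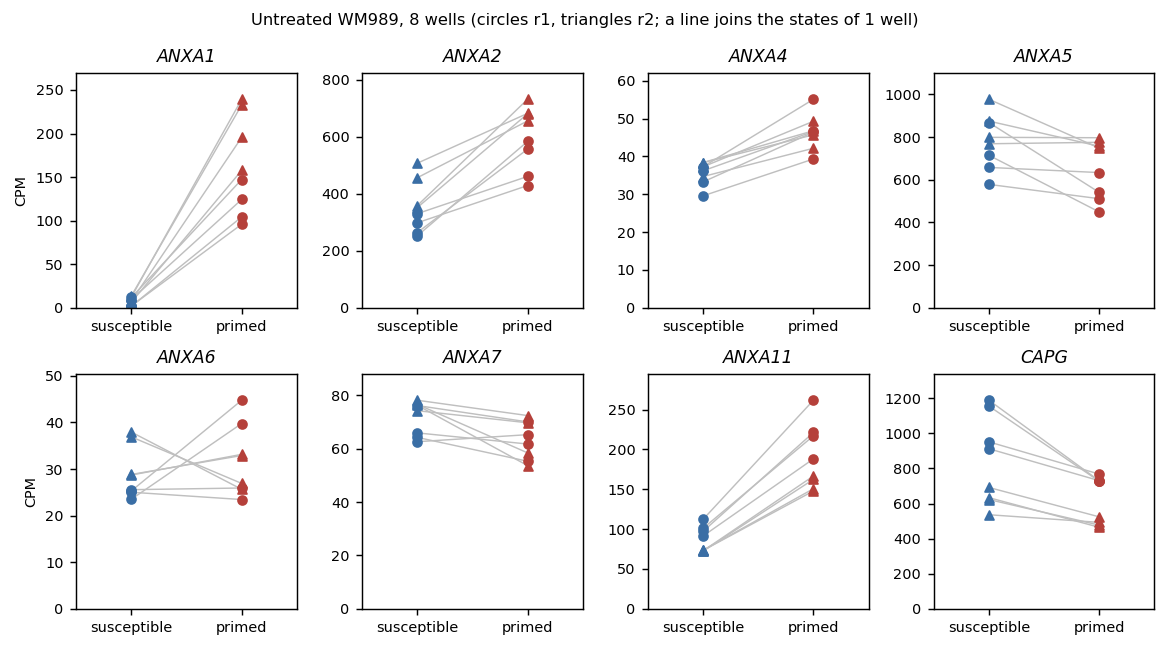
Level of 8 members in CPM (vertical axis) in the drug-susceptible (blue) and primed (red) cells of each of the 8 untreated WM989 wells, with circles for r1 and triangles for r2 and a line joining the states of a well. ANXA1 lies at 1.93 to 13.8 CPM in drug-susceptible and at 95.9 to 239 CPM in primed cells, ANXA11 also separates the states, and the line of CAPG slopes downward in every well.

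The authors' 11 clusters of untreated WM989 cells, of which 2, 8 and 9 are the primed ones, showed how far the difference holds within a state. ANXA1 was at 175, 151 and 186 CPM in clusters 2, 8 and 9 and at 2.31 to 12.9 CPM in the 8 drug-susceptible clusters, where clusters 4 (12.1 CPM) and 10 (12.9 CPM) were the highest. ANXA11 was at 166 to 209 CPM in the primed and 66.2 to 101 CPM in the drug-susceptible clusters. For both genes, and for ANXA2, every primed cluster was above every drug-susceptible cluster.

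The other members shown varied within a state as well. ANXA2 ran from 122 CPM in cluster 3 to 457 CPM in cluster 10 among drug-susceptible clusters. In the primed clusters it was at 520 to 684 CPM, highest in cluster 9. ANXA5 ran from 378 CPM in cluster 3 to 852 CPM in cluster 5, and its primed clusters (591 to 672 CPM) lay between. CAPG was at 565 to 671 CPM in the primed clusters, while the drug-susceptible clusters ran from 563 CPM in cluster 3 to 1317 CPM in cluster 10. Cluster 3 held the lowest level of ANXA1, ANXA2, ANXA4, ANXA5, ANXA6, ANXA7, ANXA11 and CAPG, and its cells had a median of 18.5% mitochondrial UMIs, the highest of the 11 clusters, against 12.8% over all cells. The 3 primed clusters had medians of 7.49% to 9.45%. The part of cell quality in these levels was not tested.

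**Figure D2:**
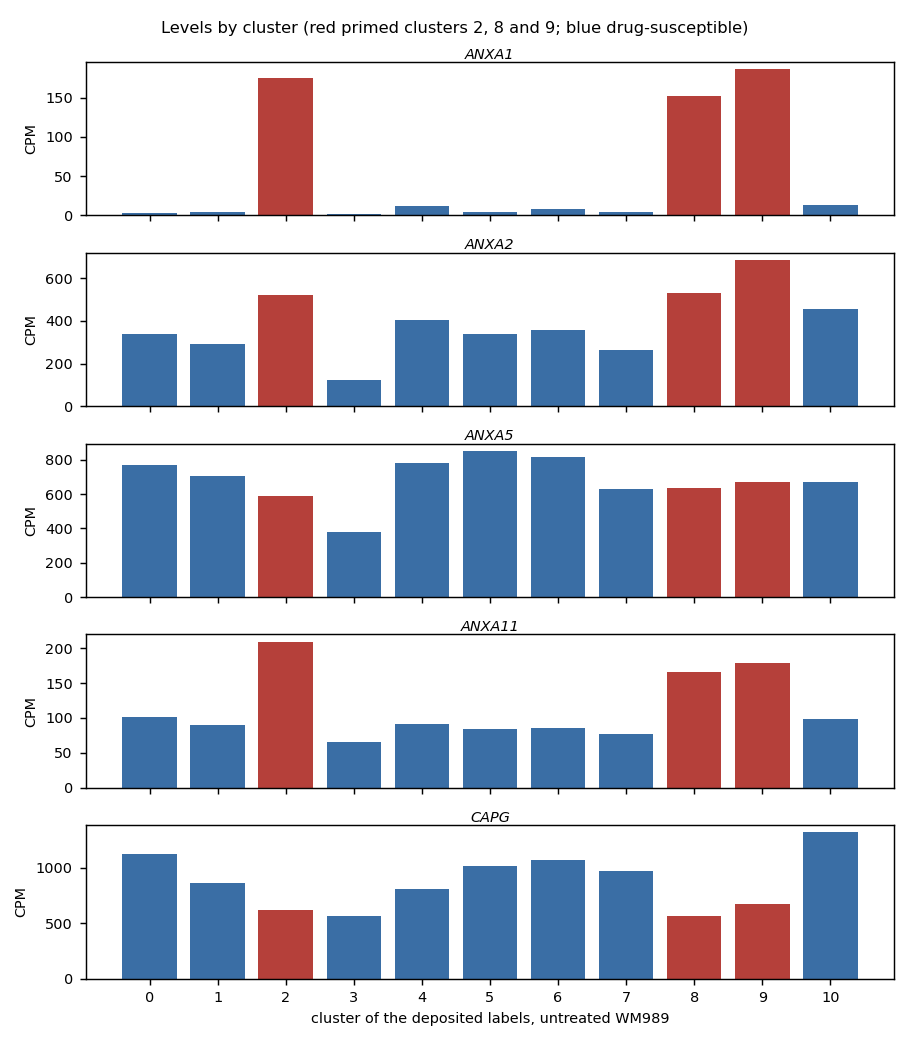
Level in CPM (vertical axis) of ANXA1, ANXA2, ANXA5, ANXA11 and CAPG in each of the 11 clusters of untreated WM989 cells (horizontal axis), with primed clusters in red and drug-susceptible clusters in blue. The primed clusters stand above all others for ANXA1, ANXA2 and ANXA11, cluster 3 is low throughout, and CAPG is highest in cluster 10 (1317 CPM).

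Across the 11 clusters the Pearson correlation of log2(CPM + 1) was 0.953 between ANXA1 and ANXA11, 0.924 between ANXA5 and ANXA7, 0.900 between ANXA5 and ANXA6, and −0.548 between ANXA1 and CAPG. The clusters share libraries and depth, so these values are descriptions. Among 7021 genes the most alike to ANXA1 were BACH1 (0.994), NOV (0.992), SKIL (0.990), CD44 (0.990) and BASP1 (0.988). For ANXA2 they were PWWP2A (0.965), RUFY1 (0.964), ABRAXAS1 (0.961), BABAM2 (0.959) and PSME1 (0.958). For CAPG they were GHITM (0.966), CAT (0.961), MRPS30 (0.956), SUCLG1 (0.954) and PCCB (0.951).

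The partners of the members differed between the states of WM989 as follows, where 10.4% of the 6316 genes that reached 20 CPM were above a ratio of 2 and 6.55% below 0.5. Of 4 S100 proteins that bind annexins, 3 were above a ratio of 2 and 0 below 0.5, with 8.99 for S100A4, 7.83 for S100A6 and 2.33 for S100A11, and with 1.88 for S100A10, the partner of ANXA2. Of 13 genes of membrane repair and calcium-dependent membrane proteins, 10 reached 20 CPM and 5 were above 2, with 15.6 for MYOF, 15.5 for CAV1, 5.59 for EHD2, 2.47 for CAPN2 and 2.35 for AHNAK, and 0 were below 0.5. Among 10 genes of the gelsolin family and actin capping 6 reached 20 CPM, and SVIL (5.50) was above 2 while GSN, gelsolin itself, was below 0.5 (0.456). The median ratio was 5.08 over the S100 proteins, 2.12 over the membrane genes and 1.31 over the gelsolin family and capping genes that reached 20 CPM. Receptors of ANXA1 (FPR1, FPR2 and FPR3) and 5 further annexins (ANXA8, ANXA8L1, ANXA9, ANXA10 and ANXA13) did not reach 20 CPM in either state.

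In WM983B ANXA1 and ANXA2 had the largest ratios of primed to drug-susceptible cells, and the ratio of ANXA11 was close to 1. With 1 library there is no replicate check, and the intervals cover counting error only. Of 9 members that reached 20 CPM in a state, 1 had a ratio above 2, against 1.30% of 6856 genes, and 0 had a ratio below 0.5, against 0.686%. ANXA1 was at 482 CPM in the primed state against 231 CPM, a ratio of 2.08 (2.04 to 2.13). Its drug-susceptible level was thus far above that in WM989, and 99.3% of drug-susceptible cells had an ANXA1 UMI, against 15.9% with one of ANXA13 and 1.11% with one of PTPRC, a leukocyte gene (for these last genes 11.6% and 0.547% of primed cells, at median depths of 63758 UMIs in primed and 72187.5 UMIs in drug-susceptible cells).

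ANXA2 was at 1119 CPM in the primed cells of WM983B against 716 CPM, a ratio of 1.56 (1.54 to 1.58). ANXA6 and ANXA7 were also higher in primed cells, with ratios of 1.20 (1.15 to 1.26) and 1.18 (1.13 to 1.23). ANXA5 was lower, with 591 CPM against 746 CPM and a ratio of 0.792 (0.780 to 0.804). ANXA4 had a ratio of 0.927 (0.866 to 0.992). The intervals of ANXA11 (1.04, 0.992 to 1.08), CAPG (0.979, 0.951 to 1.01) and ANXA3 (0.931, 0.857 to 1.01) included 1. ANXA3, near 0 in WM989, was at 21.3 and 22.9 CPM in the states of WM983B.

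The difference in WM983B depended on the cluster. Primed cluster 0 had an ANXA1 ratio of 2.46 and an ANXA2 ratio of 1.79 against the main drug-susceptible cluster, cluster 1, whereas primed cluster 2 had 1.68 and 0.914. Drug-susceptible cluster 3 had 398 CPM of ANXA1 and 1018 CPM of ANXA2, above the 343 and 609 CPM of primed cluster 2. With primed cluster 2 set against cluster 1, the count of members with a ratio above 2 was 0 of 9. The share of all genes above 2 was not counted for these 2 clusters. Among the partners in WM983B, S100A4 (2.40) and MYOF (2.59) were above 2, beside 1.30% of all genes. Of the 8 markers of other cell types, LUM had 83.3 CPM (primed) and 99.9 CPM (drug-susceptible) in WM983B and LYZ 21.6 and 11.7 CPM (ratio 1.84), the other 6 were at most at 1.74 CPM, and CD3E and KRT5 were at 0 in both states. Their part in the results was not tested.

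The treatment experiment asked how TGFB1, TGFBR1/2 inhibition and PI3K inhibition change the states, and here the counts of each library could be tested. TGFB1 raised ANXA1, ANXA2 and ANXA5 over all cells, PI3Ki lowered ANXA1, ANXA2 and ANXA11, and TGFBRi changed no member past the threshold. Counts were summed per library and tested with edgeR's quasi-likelihood test, with terms for treatment and replicate and Benjamini-Hochberg adjustment over all genes. ANXA3 was too low to be tested. All 3 comparisons share the 2 untreated libraries. The p-values measure the spread between these libraries, with 2 per treatment. The share of primed cells was 2.26% and 4.47% in the untreated libraries (r1 and r2), 29.1% and 31.3% under TGFB1, 2.26% and 4.32% under TGFBRi, and 0.647% and 1.21% under PI3Ki, so sums over all cells move with it.

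Under TGFB1 3 of 8 members passed the test over all cells, all upward, against 29.0% of the 18389 genes tested. ANXA1 was at 2.74 and 6.17 CPM in untreated r1 and r2 and at 19.0 and 21.6 CPM under TGFB1. The groups did not overlap, and ANXA1 rose by a log2 fold change of 2.25 (SE 0.155, edgeR adjusted p = 1.29e-10). ANXA2 rose from 267 and 306 CPM to 509 and 486 CPM, a log2 fold change of 0.79 (SE 0.0824, edgeR adjusted p = 1.02e-07). ANXA5 rose from 849 and 868 CPM to 1093 and 1055 CPM, a log2 fold change of 0.31 (SE 0.0744, edgeR adjusted p = 0.0028). The ANXA5 call was lost without Control r1 (edgeR adjusted p = 0.0768), Control r2 (0.0611) or TGFB1 r1 (0.108).

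The other 5 members did not pass over all cells under TGFB1. ANXA11 had a log2 fold change of −0.17 (edgeR adjusted p = 0.0578), ANXA4 of −0.18 (0.0620) and CAPG of −0.18 (0.100), and each of them passed without TGFBRi r1 (0.0130, 0.0158 and 0.0405) or without TGFBRi r2 (0.0126, 0.0148 and 0.0418). ANXA6 was at −0.09 and ANXA7 at −0.05. The median log2 fold change was −0.07 over the 8 members and 0.01 over all genes.

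In sums that leave out the cells labelled primed, 5 of 8 members passed under TGFB1, against 14.9% of 17914 genes. Whether free RNA from primed cells, whose share was higher under TGFB1, adds to these drug-susceptible counts was not tested. ANXA5 rose most clearly with ANXA2. ANXA5 was at 849 and 870 CPM in untreated r1 and r2 and at 1204 and 1158 CPM under TGFB1, a log2 fold change of 0.45 (SE 0.0755, edgeR adjusted p = 1.56e-04). ANXA2 went from 261 and 297 CPM to 447 and 439 CPM, a log2 fold change of 0.66 (SE 0.0785, edgeR adjusted p = 1.33e-06). The treated libraries of both genes lay well above the untreated ones, and both calls held under every alternative run.

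The members that did not pass there were ANXA6 (log2 fold change −0.15), ANXA7 (0.053) and CAPG (−0.030). The other 3 calls in drug-susceptible cells under TGFB1 were less stable. ANXA1 rose from 1.47 and 3.41 CPM to 4.08 and 3.95 CPM, a log2 fold change of 0.76 (SE 0.188, edgeR adjusted p = 0.00661), which was lost with DESeq2 (adjusted p = 0.167), without a term for replicate (edgeR adjusted p = 0.305), without Control r1 (0.0706) and without TGFB1 r1, where it was 0.25 (0.445). ANXA11 fell from 88.2 and 84.6 CPM to 71.8 and 75.3 CPM, a log2 fold change of −0.25 (SE 0.0663, edgeR adjusted p = 0.0121). The ANXA11 call was lost without a term for replicate (0.0543) and without Control r1 (0.319), TGFB1 r1 (0.127) or TGFB1 r2 (0.0810). ANXA4 fell from 33.7 and 35.3 CPM to 30.6 and 29.6 CPM, a log2 fold change of −0.21 (SE 0.0707, edgeR adjusted p = 0.0488). This call sat at the threshold, and it was lost with DESeq2 (adjusted p = 0.100), without a term for replicate (edgeR adjusted p = 0.195) and without either untreated, either TGFB1 or either PI3Ki library (0.0525 for Control r1, 0.554 for Control r2, 0.216 for TGFB1 r1 and TGFB1 r2, 0.0822 for PI3Ki r1 and 0.0809 for PI3Ki r2).

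Looking inside the clusters of drug-susceptible cells separated these genes. In the 8 clusters with at least 20 cells from each untreated and TGFB1 library, ANXA5 (1 of 7 members at 20 CPM or more in drug-susceptible cells) was above both untreated libraries in both TGFB1 libraries in all 8, as were 1.86% of 5525 genes. ANXA4 (1 of 7) was below in all 8, as were 0.923%. ANXA2 was above in 6 and below in 1, the latter being cluster 3. ANXA11 and ANXA6 were each below in 6. ANXA7 was above in 4 and below in 1, and CAPG above in 1 and below in 1. ANXA1 and ANXA3 did not reach 20 CPM.

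Cluster 3 of the treatment experiment was rare in untreated and common in TGFB1-treated cells. It held 1.35% and 1.60% of untreated cells (r1 and r2) and 40.3% and 28.8% of TGFB1 cells. Over all libraries ANXA1 was at 9.23 CPM in cluster 3, the highest among these 8 clusters, in which the others were at 1.07 to 3.23 CPM. In its few untreated cells (56 and 59) ANXA1 was at 22.0 and 47.3 CPM, and in its TGFB1 cells at 6.74 and 8.17 CPM. In cluster 0 it was at 1.41 and 2.42 CPM untreated (45 and 58 counts) and at 0.549 and 1.82 CPM under TGFB1 (1 and 3 counts), and the intervals of the TGFB1 values, 0.0139 to 3.06 CPM and 0.375 to 5.31 CPM, held both untreated values. In cluster 1 it was at 1.22 and 3.56 CPM untreated (23 and 61 counts) and at 0.722 and 1.73 CPM under TGFB1 (10 and 20 counts), and in r2 the TGFB1 interval (1.06 to 2.68 CPM) lay below the untreated one (2.72 to 4.57 CPM). In cluster 5 the replicates went opposite ways, with 0.686 CPM untreated and 1.15 CPM under TGFB1 in r1 and 2.90 CPM (1.84 to 4.35) and 0.395 CPM (0.0479 to 1.43) in r2. In r1 the TGFB1 level was also the higher one in cluster 2 (1.87 against 0.844 CPM), cluster 7 (4.04 against 2.04 CPM) and cluster 8 (1.61 against 0.915 CPM), with overlapping intervals in each. The TGFB1 libraries were both above the untreated ones in 0 of the 8 clusters and both below in 1, cluster 3, while outside it these levels rest on 1 to 23 counts under TGFB1. The part of the cluster makeup in the rise over drug-susceptible cells was not tested. ANXA5 was at 902 and 913 CPM in untreated cluster 0 and at 1059 and 1093 CPM under TGFB1.

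**Figure D3:**
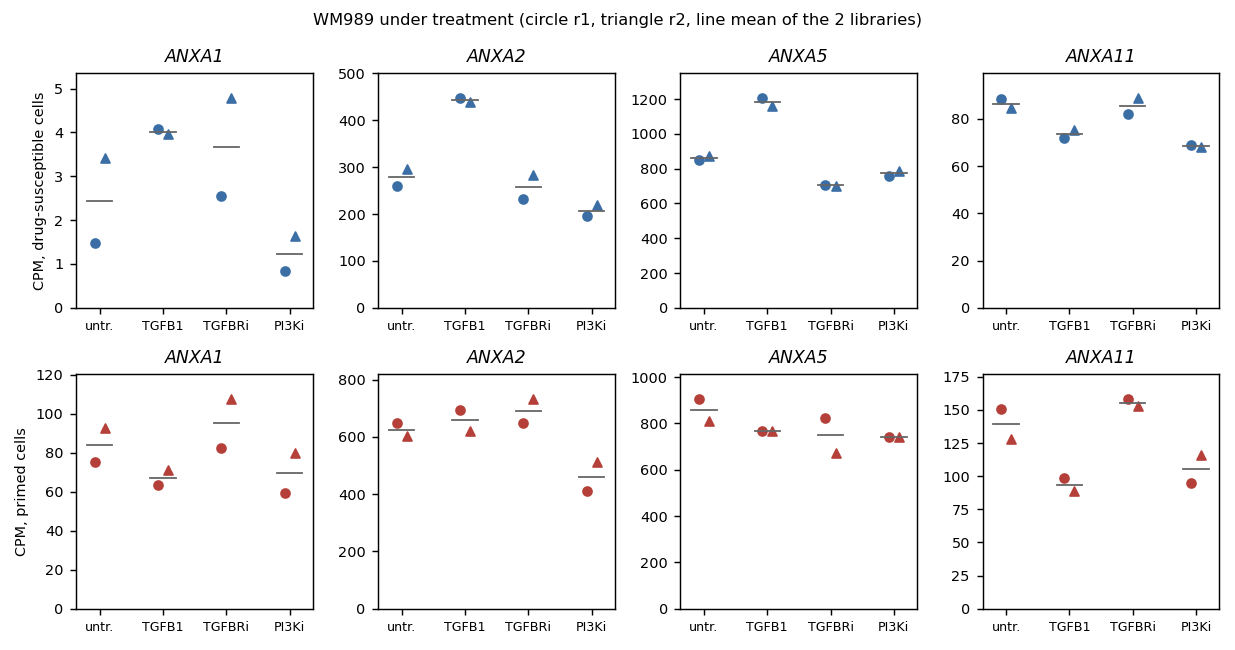
Level in CPM (vertical axis) of ANXA1, ANXA2, ANXA5 and ANXA11 in drug-susceptible (upper row) and primed cells (lower row) of the treatment experiment, with a circle for r1, a triangle for r2 and a line at the mean of the 2 libraries. Under TGFB1 ANXA2 and ANXA5 stand above the untreated libraries in drug-susceptible cells, and ANXA11 stands below them in primed cells (98.7 and 88.7 against 150.5 and 128 CPM).

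In primed cells TGFB1 changed 1 of 8 members, ANXA11, against 13.3% of 10930 genes tested. ANXA11 was at 150.5 and 128 CPM in untreated primed cells (94 and 165 cells) and at 98.7 and 88.7 CPM under TGFB1 (1577 and 1757 cells). The groups did not overlap, and ANXA11 fell by 0.48 on the log2 scale (SE 0.132, edgeR adjusted p = 0.00847). Without Control r1 the adjusted p was 0.330, without TGFB1 r1 0.110 and without TGFB1 r2 0.325. ANXA1 was at 75.3 and 92.6 CPM untreated and at 63.4 and 71.0 CPM under TGFB1 (log2 fold change −0.23, SE 0.138, edgeR adjusted p = 0.307), and ANXA5 at 904 and 811 CPM and at 766 and 768 CPM (−0.08, SE 0.122, 0.758). The others were at −0.39 for ANXA6 (adjusted p = 0.134), 0.16 for ANXA2, −0.13 for CAPG, −0.094 for ANXA7 and −0.032 for ANXA4. The primed cells of the groups came from different clusters, since untreated primed cells were mainly in cluster 10 (2.14% and 4.31% of cells) and those under TGFB1 mainly in cluster 4 (28.6% and 30.4%).

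TGFBRi, which blocks the receptor of TGFB1, changed 0 of 8 members over all cells by edgeR, against 2.53% of genes. An unadjusted edgeR p under 0.05, for which the share of all genes was not counted, was found for ANXA1 (0.49), ANXA4 (−0.25) and ANXA5 (−0.27). Their edgeR adjusted p was 0.150, 0.0553 and 0.0553. DESeq2 called 1 member, ANXA5 (adjusted p = 0.00403), against 1.84% of genes. ANXA5 was at 710.0 and 698 CPM under TGFBRi, below the 849 and 868 CPM of untreated cells, and ANXA4 at 30.9 and 26.5 CPM, below 33.8 and 35.2 CPM. The ANXA1 levels of 4.01 and 8.33 CPM overlapped those of untreated cells (2.74 and 6.17 CPM), and within r1 and within r2 they were higher. This ANXA1 difference passed without Control r2 (edgeR adjusted p = 0.0233), TGFBRi r1 (0.0225), TGFB1 r1 (0.00506) or TGFB1 r2 (0.00599). ANXA4 passed without TGFBRi r1 (0.00612), as did ANXA6, at 0.26 in that fit (0.0404) and 0.10 with all libraries. ANXA7 (−0.11), ANXA2 (−0.082), CAPG (−0.075) and ANXA11 (0.0071) did not pass. In drug-susceptible cells 1 of 8 members passed, against 2.81%, namely ANXA4, which fell by 0.26 on the log2 scale (SE 0.0700, edgeR adjusted p = 0.0432). This was lost with DESeq2 (adjusted p = 0.0726) and without Control r2 (edgeR adjusted p = 0.730), TGFBRi r2 (0.348), TGFB1 r1 (0.0609), TGFB1 r2 (0.0597), PI3Ki r1 (0.0812) or PI3Ki r2 (0.0787), as well as without a term for replicate (0.384). Other members passed in some of these fits. ANXA1, at 0.61 with all libraries (edgeR adjusted p = 0.0744), passed without Control r2 (0.00259), TGFBRi r1 (0.0139), TGFB1 r1 (0.00526) or TGFB1 r2 (0.00503) and with no filter on low counts (2.67e-05). ANXA5, at −0.27 (0.0503), passed with DESeq2 (adjusted p = 0.00418), without TGFBRi r1 (edgeR adjusted p = 0.0471), PI3Ki r1 (0.0474) or PI3Ki r2 (0.0463) and with no filter (0.0121). ANXA6, at 0.098, passed without TGFBRi r1 (0.25, 0.0453). ANXA7 (−0.11), ANXA2 (−0.10), CAPG (−0.076) and ANXA11 (−0.0036) passed in none. In primed cells edgeR called 0 of 8, against 0.375%, 0 had an unadjusted p under 0.05, and DESeq2 called 0, against 0.119%. The log2 fold changes there ran from −0.21 for ANXA5 to 0.18 for ANXA1, with 0.17 for ANXA11, 0.14 for ANXA2, 0.098 for ANXA6, 0.033 for CAPG, 0.014 for ANXA4 and −0.027 for ANXA7 between them.

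PI3Ki lowered 3 of 8 members over all cells, against 12.7% of genes called. ANXA1 fell from 2.74 and 6.17 CPM to 1.08 and 2.25 CPM, a log2 fold change of −1.27 (SE 0.196, edgeR adjusted p = 1.31e-04). ANXA2 fell from 267 and 306 CPM to 196 and 221 CPM (−0.36, SE 0.0822, edgeR adjusted p = 0.00527), and ANXA11 from 89.3 and 85.9 CPM to 69.1 and 68.5 CPM (−0.25, SE 0.0660, edgeR adjusted p = 0.0145). Both PI3Ki libraries were below both untreated libraries for all 3 genes. The calls rest on these same libraries, and the share of all genes so separated was not counted. Without a term for replicate 0 members passed (edgeR adjusted p of 0.129, 0.101 and 0.0755 in this order). ANXA2 was lost without Control r2 (0.0886) or PI3Ki r1 (0.0992), and ANXA11 without Control r1 (0.281), Control r2 (0.0576), PI3Ki r1 (0.165) or PI3Ki r2 (0.122). CAPG was at 880 and 929 CPM against 876 and 820 CPM in untreated cells (0.19, adjusted p = 0.137). ANXA6 (−0.13), ANXA4 (−0.051), ANXA5 (−0.050) and ANXA7 (−0.010) did not pass.

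The same 3 members fell in drug-susceptible cells under PI3Ki, against 12.1% of genes. The makeup of these cells by cluster differed from that of the untreated ones, since cluster 6 held 3.11% and 1.06% of untreated cells (r1 and r2) and 28.6% and 19.6% under PI3Ki, and cluster 0 held 43.3% and 31.8% against 22.7% and 17.2%. The part of this makeup in the results was not tested. ANXA1 fell from 1.47 and 3.41 CPM to 0.843 and 1.63 CPM (log2 fold change −0.84, SE 0.209, edgeR adjusted p = 0.00954), a range that overlapped with the untreated one. The ANXA1 call was lost with DESeq2 (adjusted p = 0.194) and without Control r2 (edgeR adjusted p = 0.379), PI3Ki r1 (0.0788) or PI3Ki r2 (0.0544). ANXA2 fell by 0.33 (SE 0.0784, edgeR adjusted p = 0.0063) and ANXA11 by 0.24 (SE 0.0659, 0.0189) on the log2 scale. ANXA2 was lost without Control r2 (0.0922) or PI3Ki r1 (0.113), and ANXA11 without Control r1 (0.364), Control r2 (0.0545), PI3Ki r1 (0.176) or PI3Ki r2 (0.187). Without a term for replicate 0 members passed. The other log2 fold changes were 0.18 for CAPG, −0.12 for ANXA6, −0.055 for ANXA4, −0.054 for ANXA5 and −0.020 for ANXA7 (edgeR adjusted p of at least 0.163). In primed cells, which numbered 25 and 70 under PI3Ki, edgeR called 0 of 8 members, against 1.78%. An unadjusted edgeR p under 0.05, for which the share of all genes was not counted, was found for ANXA2 (−0.46, edgeR adjusted p = 0.118) and ANXA6 (−0.74, 0.291). DESeq2 called 0 members, against 1.24% of genes. Without PI3Ki r2, which leaves 1 library of 25 primed cells, ANXA2 was at −0.74 in edgeR. The others were at −0.36 for ANXA11, −0.28 for ANXA1, −0.25 for ANXA5, −0.22 for ANXA4, −0.072 for CAPG and 0.025 for ANXA7.

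**Figure D4:**
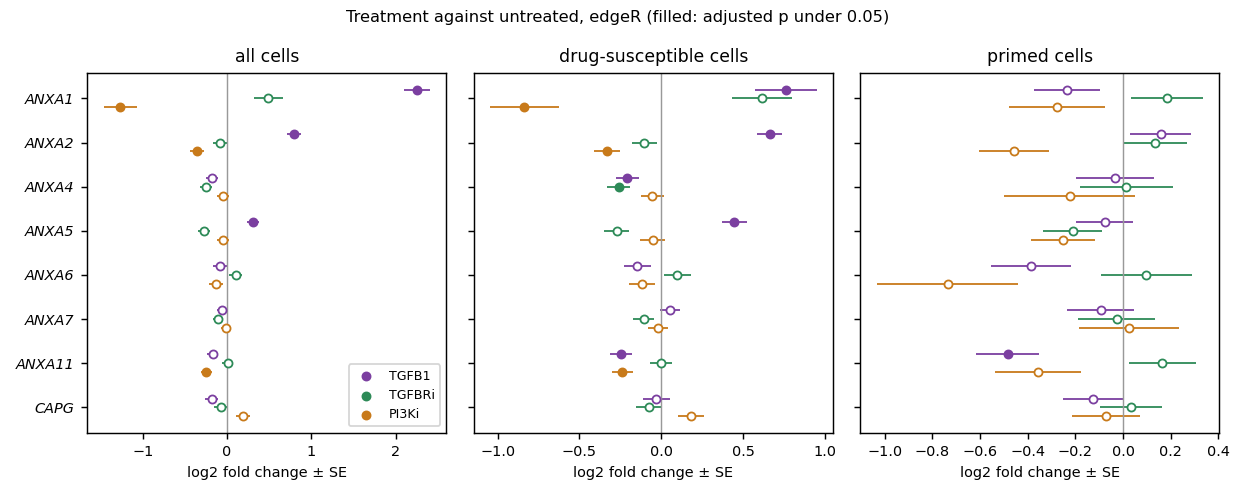
Log2 fold change against untreated cells with its SE (horizontal axis) from edgeR for 8 members under TGFB1 (purple), TGFBRi (green) and PI3Ki (orange), in all, drug-susceptible and primed cells; filled points have an adjusted p under 0.05. ANXA1 shows the widest spread, from −1.27 under PI3Ki to 2.25 under TGFB1 over all cells, and in primed cells only ANXA11 under TGFB1 is filled.

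Among the partners of the members, under TGFB1 over all cells all 4 S100 proteins rose, with log2 fold changes of 1.34 for S100A4, 0.59 for S100A6, 0.46 for S100A11 and 0.33 for S100A10 (edgeR adjusted p of at most 0.00362). Of the 13 membrane genes 3 rose and 0 fell, MYOF (2.38), CAV1 (1.96) and EHD2 (0.96), and of the 10 gelsolin and capping genes 1 rose, SVIL (1.03), beside 29.0% of all genes called in either direction. The medians over the lists were 0.52, 0.16 and 0.01, against 0.01 over all genes. FPR1, a receptor of ANXA1, rose by a log2 fold change of 1.43, and of 2 further annexins tested ANXA9 fell (−0.49), both at low counts.

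In drug-susceptible cells under TGFB1 3 of the 4 S100 proteins, 3 of 13 membrane genes and 1 of 10 gelsolin and capping genes rose, and 1 membrane gene fell (AHNAK, −0.39), beside 14.9% of all genes called. In primed cells under TGFB1 2 of the 4 S100 proteins fell, S100A4 (−1.27) and S100A6 (−1.31), while among 10 membrane genes CAV1 rose (0.77) and AHNAK (−0.72) and CAPN2 (−0.45) fell, beside 13.3% of all genes called. Under PI3Ki over all cells 2 of 4 S100 proteins fell, S100A4 (−1.76) and S100A6 (−0.30), as did 3 of 13 membrane genes, MYOF (−1.43), AHNAK (−0.54) and CAV1 (−0.31), and 3 of 10 gelsolin and capping genes, SVIL (−0.42), GSN (−0.40) and CAPZB (−0.22), beside 12.7% of all genes called. ANXA9 rose by 0.54. Under TGFBRi S100A4 rose (0.56) and SVIL fell (−0.37), and none of the membrane genes passed by edgeR, beside 2.53% of all genes called. Of the 5 markers of other cell types that could be tested over all cells, PECAM1 rose under TGFB1 (3.02) and LUM fell under PI3Ki (−0.41). The summed level of all 8 such markers was 30.7 and 31.1 CPM untreated, 33.0 and 29.1 CPM under TGFB1 and 21.9 and 21.4 CPM under PI3Ki. Their part in the results was not tested.

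In open chromatin the members fell into 3 groups. ANXA1 had a peak within 1000 bases of its start in every library sorted for EGFR or NGFR and in none of the Mix libraries. Of the 9 members 7 had a peak in all 12 libraries, against 63.7% of 18661 gene starts. ANXA3 had none in any, against 28.6%. A peak was assigned to a gene when it overlapped 1000 bases either side of the start, and its fold enrichment over the local background is the value that the peak caller gave. Peak lists hold only what passed the caller, so the absence of a peak gives no level, and the depth of the libraries is unknown.

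ANXA1 had fold enrichments of 9.82, 6.14 and 4.96 in EGFR-NGFR-High, 6.40, 5.20 and 4.41 in EGFR_High and 7.95, 4.81 and 7.52 in NGFR-High. The 3 Mix libraries had no peak there. The values of the sorted libraries come from separate regions, centred −21, 360 and 770 bases from the start, with peaks in 7, 6 and 6 libraries. None of these regions had a peak in all 9 sorted libraries. The region over the start itself had no peak in EGFR_High library 2 and NGFR-High library 3. Peaks in all 9 sorted and no Mix libraries were found at 13 of 18661 gene starts (0.0697%), of which ANXA1 was the only member. These peaks were weak, since 8 of 9 were below the median fold enrichment of their library (8.32 to 9.62). Within 250 bases of the start 7 of 9 sorted and 0 of 3 Mix libraries had a peak, and among the 50000 peaks ranked highest by q-value in each library 0 of 9 did. The distinct peaks numbered 149008 to 180941 in the sorted and 148575 to 165656 in the Mix libraries.

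At the other starts no member passed the test. In limma over 11895 gene starts with a peak in all 12 libraries, 0 of 7 members passed in EGFR-NGFR-High against Mix (0.773% of starts called), 0 of 7 in EGFR_High (0.219%) and 0 of 7 in NGFR-High (0.647%). An unadjusted p under 0.05 was found for 0 members in any of these, against 1343, 1401 and 1405 of all starts. CAPG had the largest difference in EGFR-NGFR-High, with fold enrichments of 40.8, 35.9 and 32.3 against 30.5, 23.1 and 33.9 in Mix (log2 difference 0.26, SE 0.140, limma adjusted p = 0.532). ANXA6 was next at −0.20 (SE 0.108, adjusted p = 0.531). Without replicate number 1, 2 or 3 CAPG was at 0.28, 0.11 and 0.37 (for the last, limma unadjusted p = 0.0272, adjusted p = 0.411). Without number 2 the differences of ANXA6 (−0.20) and ANXA2 (−0.17) were larger than that of CAPG. ANXA2 had 39.0, 39.7 and 41.7 in EGFR-NGFR-High and 45.2, 37.2 and 41.6 in Mix (−0.11, SE 0.114, adjusted p = 0.777), so the groups overlapped. ANXA7 had 67.2, 68.7 and 59.2 in NGFR-High and 54.7, 41.5 and 58.1 in Mix, so every NGFR-High library lay above every Mix library (log2 difference 0.19, SE 0.110, limma adjusted p = 0.520). Without centring by library this difference was 0.35 (unadjusted p = 0.0260, limma adjusted p = 0.239). With centring and without replicate number 1, 2 or 3 it was 0.23, 0.054 and 0.30.

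The remaining differences from Mix were small. In EGFR-NGFR-High they were 0.11 for ANXA5, 0.056 for ANXA11, 0.027 for ANXA7 and 0.00069 for ANXA4 on the log2 scale. In EGFR_High CAPG was at 0.22, ANXA2 at −0.12, ANXA7 at 0.11, ANXA4 at −0.10, ANXA5 at 0.094, ANXA11 at 0.077 and ANXA6 at 0.0054. In NGFR-High ANXA11 was at 0.16, ANXA5 at −0.15, CAPG at 0.13, ANXA6 at −0.083, ANXA4 at −0.080 and ANXA2 at −0.032. The limma adjusted p of these differences was at least 0.582.

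**Figure D5:**
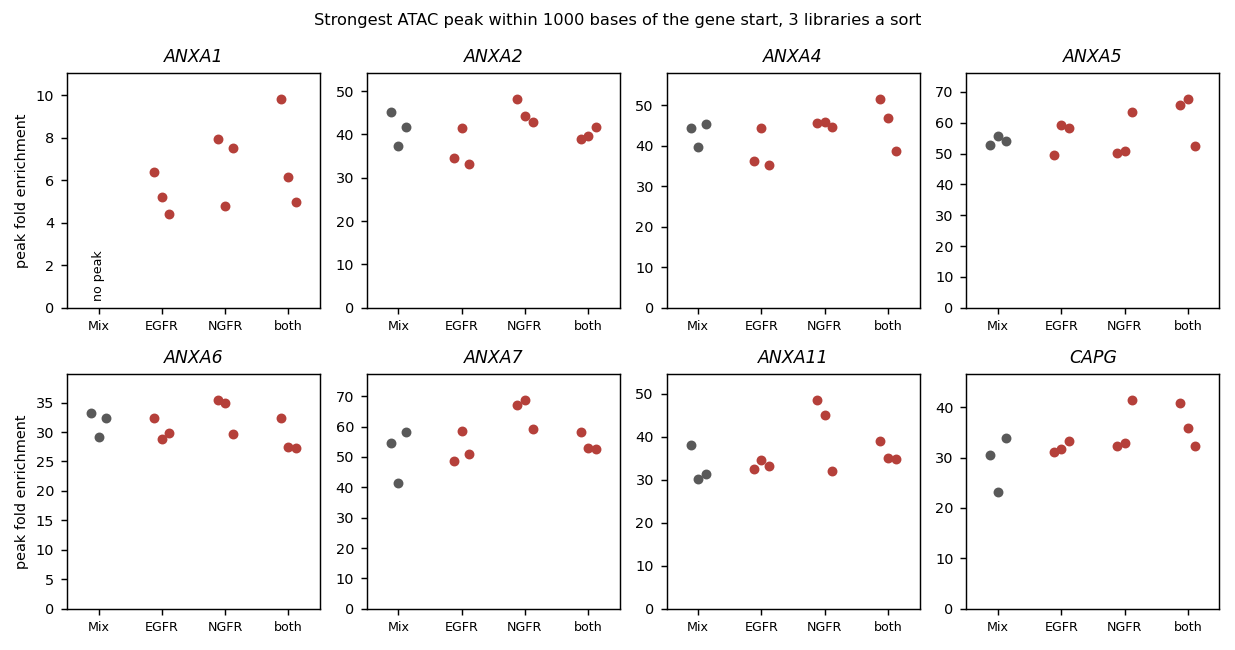
Fold enrichment over local background (vertical axis) of the strongest peak within 1000 bases of the gene start for 8 members in Mix, EGFR_High (EGFR), NGFR-High (NGFR) and EGFR-NGFR-High (both) libraries, 1 point per library. ANXA1 has points of 4.41 to 9.82 in the sorted libraries and none in Mix, while the other members have points in every sort and those of ANXA7 in NGFR-High (59.2 to 68.7) lie above those in Mix (41.5 to 58.1).

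Over the members and 10000 bases either side, gene starts included, 92 regions had a peak in at least 3 libraries. Of these 46 were found in all 12 libraries, 0 in all Mix and no sorted libraries, and 3 in all 9 sorted and no Mix libraries. The last pattern held for 0.857% of all 151844 regions. The 3 regions lie in ANXA2 (chr15:60385837-60386534), ANXA4 (chr2:69766970-69767604) and ANXA11 (chr10:80154864-80155779), and their centres are 11801, 25153 and 50216 bases from the start of the gene. Exons were looked up in a window of 300 bases around the highest summit of each region. The windows of ANXA2 and ANXA11 overlapped an exon of the gene, and that of ANXA4 overlapped none. Fold enrichments were 3.92 to 15.8 in the ANXA2 region, 6.12 to 17.9 in the ANXA4 region and 3.92 to 13.7 in the ANXA11 region. For CAPG the start used for peaks lies 3650 bases from the RefSeq start. Near the latter, region chr2:85414463-85415260 had 10.7 to 25.4 in sorted and 30.9 to 37.3 in Mix libraries. In CAPG region chr2:85392208-85392946 the values were 6.40 to 10.8 and 15.1 to 17.0. The other CAPG regions with a peak in all 12 libraries overlapped between sorted and Mix libraries. Such separation was not particular to CAPG. In ANXA4, region chr2:69772920-69773592 had 9.92 to 17.9 in sorted and 4.24 to 6.78 in Mix libraries. Its region chr2:69797990-69799498 had 16.6 to 24.6 and 26.6 to 31.6. In ANXA5, region chr4:121668021-121669710 had 78.5 to 115.8 and 72.1 to 76.8. The share of all regions so separated was not counted. These differences were not tested. The window of 300 bases of the ANXA4 region is shown because it is the only 1 of the 3 that overlapped no exon. The sequence is chr2:69766984-69767283 of hg38 on the plus strand, with CATTCC, which is GGAATG on the other strand, in capitals.
ANXA4 region: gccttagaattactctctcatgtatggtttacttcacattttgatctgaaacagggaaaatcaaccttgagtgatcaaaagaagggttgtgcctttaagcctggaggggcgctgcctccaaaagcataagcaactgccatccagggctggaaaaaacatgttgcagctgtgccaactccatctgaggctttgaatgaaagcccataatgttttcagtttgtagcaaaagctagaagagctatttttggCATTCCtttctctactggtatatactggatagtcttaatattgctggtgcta
This window held 1 GGAATG and 0 TGANTCA, the ANXA11 window held 2 and 0, and the ANXA2 window held 0 of both. Over all regions 20.7% held GGAATG and 21.4% held TGANTCA in such a window, and over the 1302 regions found in all sorted and no Mix libraries 26.7% and 47.3%.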

How the data were processed

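Single-cell RNA-seq of WM989 and WM983B and ATAC-seq of sorted WM989 cells were analysed from processed files. The authors deposited raw UMI counts of 3′ libraries, obtained by Cell Ranger against hg38 and aggregated with no depth normalization, after filtering cells in Seurat on gene number and mitochondrial percent. The version of Cell Ranger and its annotation are not given in the sources used here. The deposited cell labels (other than numbers: well, replicate, cluster, state, phase) and the deposited percent of mitochondrial UMIs were used as they stand. No doublet caller was run here. For ATAC-seq the authors deposited MACS2 (2.1.1.20160309) peaks, called in each library after alignment with Bowtie2 (2.3.4.1) and SAMtools (1.1), with the fold enrichment as a ratio over local background and the −log10 of the q-value. Versions are from the submitters' processing notes.

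Counts were summed per state, well, cluster or library and scaled to CPM, with exact 95% intervals. UMIs from 3′ ends were not scaled by gene length, so levels are compared within a gene. Genes with at least 20 CPM in a state were counted in ratios. Cells were thinned to 10000 UMIs (WM983B to 30000) for shares of cells with a UMI. In the treatment experiment edgeR 4.0.16 (R 4.3.3) with filterByExpr, TMM factors of 0.934 to 1.07, a two-sided threshold of 0.05 and 3 residual degrees of freedom was used, with DESeq2 1.42.0 as an alternative. SEs are the fold change divided by the root of the F statistic. The study's methods split each replicate culture over the treatments, and r2 minus r1 correlated between all 6 pairs of treatments (Pearson's r 0.256 to 0.365 over 18389 genes), so replicate was a term. Sample titles call the replicates Mix and Primed, and how these map to r1 and r2 of the cell labels is not known here. Primed cells were tested in libraries with at least 20 of them. Log2 fold enrichments, centred by library, were tested with limma 3.58.1. Scripts were tested on simulated data with 200 changed genes. Alternatives were DESeq2, other size factors, no filter, no replicate term, fewer libraries, other cells, windows, centring and peaks.

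All 9 members are named in every comparison, partner genes are given a value only where they reached 20 CPM in a WM989 state (FPR1 and ANXA9 were named after their values were seen), and for ANXA1, ANXA2 and CAPG the 5 genes with the highest correlation over clusters are named. Members and lists were chosen with earlier results of these data known. Gene positions were matched by symbol on hg38, and all 9 promoters were found in RefSeq (GRCh38.p14). For ANXA4, CAPG and ANXA11 the start used for peaks lies 98326, 3650 and 271 bases from the RefSeq start. Protein sequences were not used here.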

Additional observations from a re-analysis of the deposited data

Results flagged for a closer look

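In a group of 8 wells, ANXA3 in the drug-susceptible cells of WM989 well 5 stood apart from the others, with 0.194 CPM against 0.0839 CPM in the next highest well. Both values rest on a few counts, and well 5 held only 83 drug-susceptible cells. Of 18 such groups tested this was the only 1, and chance flags about 1 in 20.

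For 3 of 8 members the TGFB1 libraries moved in opposite directions in the states, in r1 and in r2. The share of all genes with this pattern was not counted. The log2 CPM ratio of TGFB1 to untreated cells for ANXA1 was 1.47 (r1) and 0.21 (r2) in drug-susceptible cells and −0.25 and −0.38 in primed cells. For ANXA5 it was 0.50 and 0.41 against −0.24 and −0.078, and for ANXA7 it was 0.081 and 0.052 against −0.15 and −0.19. The difference between states was not tested. The primed cells compared were mainly in different clusters.

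ANXA4 had a primed to drug-susceptible ratio of 1.26 in WM989, above 1 in all 8 wells, and of 0.927 in the single library of WM983B. The difference between the lines was not tested.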

How the results depend on the processing

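Counts of members that passed the edgeR test in the treatment experiment moved by more than 1.5 times under some alternatives. Without a term for replicate (the replicate block) 0 members passed over all cells under PI3Ki (3 with it), 2 in drug-susceptible cells under TGFB1 (5), 0 under TGFBRi (1) and 0 under PI3Ki (3). The share of all genes called also fell in these 4 comparisons, from 12.7% to 3.53%, from 14.9% to 6.64%, from 2.81% to 0.262% and from 12.1% to 3.18%. DESeq2 called 1 member over all cells under TGFBRi (1.84% of all genes) and 3 in drug-susceptible cells under TGFB1 (10.1%). Without a filter on low counts edgeR called 3 members under TGFBRi over all cells (2.53% of all genes) and 3 in drug-susceptible cells (2.50%). Leaving out 1 library at a time gave 2 to 6 members over all cells under TGFB1, 0 to 3 under TGFBRi and 1 to 3 under PI3Ki, in drug-susceptible cells 2 to 5, 0 to 4 and 0 to 3, and in primed cells 0 to 1 under TGFB1 and 0 to 1 under PI3Ki, the last population being left out library by library only after the data had been seen. In WM983B 0 members had a ratio above 2 when primed cluster 2 alone was set against drug-susceptible cluster 1 alone, where the share of all genes was not counted. The share of all genes called also moved when 1 library was left out. The 6 members under TGFB1 over all cells were found without TGFBRi r1 or without TGFBRi r2. In each of these fits 33.5% of all genes were called, against 29.0% with all libraries. Under TGFB1 and PI3Ki the share fell, in each population, without any library of the compared groups. Under TGFBRi the share rose without TGFBRi r1 over all and in drug-susceptible cells, the fits with the most members called. It fell in the other fits without a library of these groups. The cause of these shifts was not tested. Among the members singly, 720 values of the treatment experiment kept direction and side of the threshold, 52 lost the call, 28 gained it and 40 changed sign. Of the ratios between states and the shares of cells with a UMI 54 stayed within and 49 moved beyond their limit, most of the latter being shares after thinning. The limit was the spread between wells for WM989 ratios and the counting interval for WM983B ratios. For shares in both lines it was the Clopper-Pearson interval of the share before thinning. Thinning takes UMIs out of each cell and can only lower such a share, so the moved shares do not measure stability. Ratios that crossed 1 were those of ANXA2 (1.56 to 0.914) and ANXA7 (1.18 to 0.953) in WM983B in the same comparison of clusters 2 and 1, and of ANXA6 in WM989 (1.03) in G1 cells (0.984) and in r2 (0.918). None of the calls named in the results changed direction, but members that had not passed did. Over the fits that leave out 1 library, their log2 fold changes ran as follows. Over all cells under TGFBRi they were −0.20 to 0.029 for ANXA2, −0.072 to 0.26 for ANXA6, −0.071 to 0.084 for ANXA11 and −0.19 to 0.036 for CAPG, and under PI3Ki −0.13 to 0.028 for ANXA4, −0.13 to 0.014 for ANXA5 and −0.040 to 0.016 for ANXA7. In drug-susceptible cells they were −0.12 to 0.069 for CAPG under TGFB1, −0.066 to 0.25 for ANXA6, −0.073 to 0.064 for ANXA11 and −0.19 to 0.031 for CAPG under TGFBRi, and −0.14 to 0.025 for ANXA4, −0.13 to 0.012 for ANXA5, −0.26 to 0.017 for ANXA6 and −0.049 to 0.0049 for ANXA7 under PI3Ki. In primed cells they were −0.023 to 0.33 for ANXA2, −0.081 to 0.014 for ANXA4 and −0.27 to 0.038 for CAPG under TGFB1, and −0.013 to 0.27 for ANXA2, −0.051 to 0.11 for ANXA4, −0.14 to 0.25 for ANXA6, −0.053 to 0.018 for ANXA7 and −0.14 to 0.19 for CAPG under TGFBRi. Under PI3Ki they were −0.019 to 0.093 for ANXA7 and −0.28 to 0.050 for CAPG, and with at least 50 primed cells per library −0.019 and 0.046.

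For ATAC-seq 0 members passed under every alternative run. Leaving out 1 replicate number gave log2 differences of −0.22 to 0.048 for ANXA2, −0.070 to 0.068 for ANXA4, −0.086 to 0.11 for ANXA7 and −0.037 to 0.18 for ANXA11 in EGFR-NGFR-High, and −0.047 to 0.076 for ANXA6, −0.028 to 0.18 for ANXA7 and −0.0060 to 0.16 for ANXA11 in EGFR_High. With 250 bases either side ANXA5 was at −0.012 (EGFR-NGFR-High) and −0.016 (EGFR_High). Without centring ANXA6 was at −0.057 in EGFR_High, and in NGFR-High ANXA2 was at 0.12, ANXA4 at 0.077, ANXA5 at 0.0059 and ANXA6 at 0.074, where the median of all starts was 0.15. By the labels the ATAC libraries of 1 replicate number share only that number, and the main fit had no term for it. Yet 11 of 12 libraries correlated best with a library of their own number, while 2 of 18 same-number pairs had a correlation over 0.1 (range −0.047 to 0.132). Whether libraries of 1 number share a batch is not known here. With the replicate block 89, 33 and 80 gene starts were called in EGFR-NGFR-High, EGFR_High and NGFR-High, against 92, 26 and 77 without it, and 0 members in each. ANXA3 was close to absent in WM989, and only 25 and 70 primed cells were left under PI3Ki, which limits what these comparisons can show.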
